A study of Homo sapiens with 6 samples.

Results

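ANGPTL4, the 3 peroxisome proliferator-activated receptor genes PPARA, PPARD and PPARG, their partner receptors RXRA and RXRB, and the direct target genes CPT1A, SLC25A20 and ACADVL are described here. These 9 genes were taken by symbol from the 40205 genes of the count file, and all 9 had enough reads to be tested. They were chosen with results of the comparison between the CLs-treated and control groups in view, so their differences between the groups are given as a description. RNA-seq was performed on cells labelled HepG2, a human hepatoma line, in a control group of 3 samples, Control-1 to Control-3, and a CLs-treated group of 3 samples, CLs-1 to CLs-3. CLs are cationic liposomes made of the lipid DOTAP, cholesterol and a PEG-lipid, and the treated cells were exposed to them for 24 h. The dose is 120 μM in the sample labels, and the study's text also gives it as 120 μg/ml. All 6 samples are of 1 cell line, and the study calls the samples independent without saying in the sources used here whether they came from separate cultures, so every p-value measures the spread between these samples, which may be technical.

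PPARs are nuclear receptors that bind fatty acids and their derivatives. Each pairs with a retinoid X receptor (RXR) on DNA sites made of a direct repeat of AGGTCA spaced by a single base, and the pair raises transcription of nearby genes when a ligand is bound. In liver, PPARA is known for the switch to fatty acid oxidation in fasting, PPARG is the main regulator of fat cell formation, and PPARD is expressed in most tissues. ANGPTL4 encodes a secreted inhibitor of lipoprotein lipase and is among the most responsive PPAR target genes. CPT1A encodes the outer mitochondrial carnitine palmitoyltransferase, the rate-limiting step for entry of long-chain fatty acids. SLC25A20 encodes the carrier that moves acylcarnitines across the inner mitochondrial membrane, and ACADVL encodes very long-chain acyl-CoA dehydrogenase, which opens the oxidation of the chain inside.

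The start regions of the 4 target genes are shown because these genes are set beside the receptors that are known to act on such repeats. Each window holds 300 bases, from 250 before to 50 after a transcription start, 5′ to 3′ on the strand of the gene, from RefSeq on build GRCh38.p14. The counts were made on hg19, so these coordinates are not those of the counted genes. Capitals mark a stretch of 13 bases closest to AGGTCA, any base, AGGTCA on either strand. Where stretches tied, as in SLC25A20, only 1 is marked. For ACADVL, which has 2 windows, the window with the closer match is shown.
ANGPTL4, chr19:8363905-8364204, plus strand: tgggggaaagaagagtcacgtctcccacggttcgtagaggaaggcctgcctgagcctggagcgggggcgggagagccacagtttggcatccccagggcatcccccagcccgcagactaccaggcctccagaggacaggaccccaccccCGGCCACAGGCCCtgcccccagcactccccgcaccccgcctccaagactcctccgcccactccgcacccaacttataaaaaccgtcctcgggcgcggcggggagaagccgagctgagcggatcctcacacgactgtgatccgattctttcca
CPT1A, chr11:68844228-68844527, minus strand: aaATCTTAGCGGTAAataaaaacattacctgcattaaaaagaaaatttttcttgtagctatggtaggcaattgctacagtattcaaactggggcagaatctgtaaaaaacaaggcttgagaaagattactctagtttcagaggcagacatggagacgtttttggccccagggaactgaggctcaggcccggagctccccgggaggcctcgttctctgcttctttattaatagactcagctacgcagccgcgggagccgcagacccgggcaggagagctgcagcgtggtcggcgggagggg
SLC25A20, chr3:48898833-48899132, minus strand: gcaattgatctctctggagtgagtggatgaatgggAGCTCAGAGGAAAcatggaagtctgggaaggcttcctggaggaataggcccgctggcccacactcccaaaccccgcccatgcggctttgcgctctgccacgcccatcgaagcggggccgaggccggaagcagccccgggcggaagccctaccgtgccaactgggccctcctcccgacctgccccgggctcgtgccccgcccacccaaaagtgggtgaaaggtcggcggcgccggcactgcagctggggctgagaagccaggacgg
ACADVL, chr17:7219688-7219987, plus strand: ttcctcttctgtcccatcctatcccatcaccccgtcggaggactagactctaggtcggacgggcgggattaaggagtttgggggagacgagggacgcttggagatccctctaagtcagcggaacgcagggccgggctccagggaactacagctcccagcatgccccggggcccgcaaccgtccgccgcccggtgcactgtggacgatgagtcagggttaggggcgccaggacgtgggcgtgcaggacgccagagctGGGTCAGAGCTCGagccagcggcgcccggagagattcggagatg

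The marked stretch differed from the repeat at 4 positions in ANGPTL4, at 5 in CPT1A and at 3 in SLC25A20 and ACADVL, the spacer base not being counted. Among all 35116 RefSeq windows of this length, 20.9% held a stretch with at most 3 mismatches, 75.0% one with at most 4 and 2.97% one with at most 2. None of the 4 windows held a stretch with 2 mismatches or fewer. That the letters are not in these windows says nothing about the receptors, since the known PPAR element of ANGPTL4, for example, lies in the third intron, outside the window. Only the ANGPTL4 window held TATAAA on the strand of the gene.

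Between 11418527 and 13998946 reads per library were counted on genes, and values are given as CPM, counts scaled to the same library total with TMM factors. A count of 3 reads, the limit that a count of 0 allows, corresponds to 0.208 to 0.263 CPM, and the intervals given cover counting error only. The label of the cells was set against 12 markers of hepatocytes and liver cancer cells. None of the 12 had enough reads to be tested. ALB (albumin) had 8 reads, all of CLs-1, AFP had at most 1 read in any library, and TTR had 0 in all 6. The 12 markers together had 5 to 14 reads in the control samples and 87, 3 and 0 in the CLs-treated samples, the first being CLs-1. Over the same libraries COL3A1, a collagen of connective tissue, had 7456 to 11358 reads in the control samples and 8168 to 9697 in the CLs-treated samples. Of the other 7 fibroblast markers, COL1A1 had 764 to 1203 and PDGFRB 181 to 257 reads in the control samples, while DCN had at most 5, COL1A2, THY1 and POSTN at most 2, and LUM 0. All 12 hepatocyte markers are listed in the count file, and their counts go against the label of a hepatocyte-derived line. No other cell type was assigned, and the cells are called the labelled HepG2 cells below.

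CLs-1 also stood apart from the other libraries. In 35 genes, with 4550 reads in all, it had at least 30 reads and a CPM more than 8 times that of every other library, and none of the 9 genes described here was among them. Control-3 held 1 such gene and the other 4 libraries none. The summed CPM of 8 steroidogenic markers was 0.955 to 2.76 in the control samples and 33.4, 2.51 and 2.63 in the CLs-treated samples, again led by CLs-1. In CLs-1 this sum rested mostly on STAR and CYP11A1, with 290 and 151 reads. Of the 8 markers, 4 had at most 3 reads in every library. For 7 blood cell markers the summed CPM was 13.3 to 17.98 in the control samples and 53.8, 17.6 and 23.7 in the CLs-treated samples. The globin genes HBB, HBA2 and HBA1 had 324, 118 and 34 reads in CLs-1. CD68, with 149 to 198 reads in the control samples, carried most of the sum there. Of the 7 markers, 2 had at most 3 reads in every library. For 8 fibroblast markers the summed CPM was 730.0 to 1098 in the control samples and 807.7 to 954.3 in the CLs-treated samples, a sum carried by COL3A1. Within that list COL1A2 had 1044 reads in CLs-1 and at most 2 elsewhere, and THY1 had 58 in CLs-1 and at most 1 elsewhere. For 5 endothelial markers the summed CPM was 0.259 to 3.69 and 0.0864 to 0.438. For 8 adipocyte markers, of a cell type that expresses PPARG and ANGPTL4 highly, it was 2.69 to 5.57 and 3.46 to 4.82, with ADIPOQ, LEP and FABP4 at 0 reads in all 6 libraries. The part of these markers in the results below was not tested. Fewer cells of a type and less RNA per cell cannot be told apart in such bulk samples.

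The 4 direct targets were higher on average in the CLs-treated group than in the control group, while the 5 receptor genes lay on both sides of their control mean. By edgeR's quasi-likelihood test over 15047 genes with Benjamini-Hochberg adjustment, 1 of the 9 genes, ANGPTL4, passed the criteria. These were the study's cut-offs, an adjusted p-value below 0.05 and a fold change of more than 1.5 or less than 0.67. Over all genes tested 0.0864% passed, 0.0133% as higher and 0.0731% as lower. Nothing is read from that count, because the 9 genes were chosen on this contrast. The study applied its cut-offs to another test, EBSeq, which was not run here. Both ANGPTL4 and SLC25A20 are among the genes it reports as differentially expressed, and PPAR signaling is among its pathways. The CLs-treated samples lay above all 3 control samples in 3 of the 9, ANGPTL4, CPT1A and SLC25A20, and 5.34% of all genes tested were separated in that direction, 6.18% in the other and 11.5% in either. In none of the 5 receptor genes were the groups separated. None had an unadjusted p-value under 0.05 in this test, beside 874 of the 15047 genes tested. The median log2 fold change was 0.59 for the 4 targets and 0.04 for the 5 receptors, against 0.01 over all genes tested.

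ANGPTL4 had 9, 7 and 11 reads in Control-1 to Control-3 and 99, 90 and 293 reads in CLs-1 to CLs-3. As CPM these were 0.782, 0.604 and 0.943 in the control samples and 6.85, 7.78 and 25.7 in the CLs-treated samples. All 3 CLs-treated samples were far above the controls, and CLs-3 stood well above CLs-1 and CLs-2. The 95% Poisson interval was 22.8 to 28.8 CPM in CLs-3, 5.57 to 8.35 in CLs-1 and 6.26 to 9.56 in CLs-2, so the spread within the treated group was larger than counting error. The lowest CLs-treated sample was 7.27 times the highest control sample. Relative to the control mean, ANGPTL4 was 8.83-fold in CLs-1, 10.0-fold in CLs-2 and 33.1-fold in CLs-3. Its log2 fold change was 4.09 (standard error 0.56), and 3.22 without CLs-3 and 4.41 without CLs-1. The call of ANGPTL4 held with CLs-3 left out and was lost with any one of Control-1, Control-2, Control-3, CLs-1 or CLs-2 left out, when each smaller group had 2 samples. In those fits 0.0195%, and 0.013%, 0.0065%, 0.00651%, 0.00653% and 0.00651% of all genes were called higher.

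SLC25A20 had 184, 167 and 151 reads in the control samples and 331, 259 and 323 in the CLs-treated samples. These were 16.0, 14.4 and 13.0 CPM against 22.9, 22.4 and 28.3 CPM. The groups did not overlap, and CLs-3 was again the highest library. The control mean was 14.4 ± 1.52 CPM (SD, n = 3) and the CLs-treated mean 24.5 ± 3.27 CPM (SD, n = 3), a ratio of 1.70 and a log2 fold change of 0.76 (standard error 0.17). SLC25A20 did not pass the criteria in the main test, and it did in DESeq2 and in the unfiltered edgeR fit, where 0.059% and 0.228% of all genes were called higher. ANGPTL4 was the only one of the 9 called with RLE factors and with library totals only, beside 0.0199% and 0.0133% of all genes.

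CPT1A had 1488, 1348 and 1343 reads in the control samples and 2622, 1529 and 1944 in the CLs-treated samples. In CPM the values were 129.2, 116.4 and 115.2 in the control samples and 181.5, 132.2 and 170.3 in the CLs-treated samples. CLs-2 lay just above Control-1, at 1.02 times its level, and the 95% Poisson intervals of those libraries, 125.6 to 138.9 and 122.7 to 135.9 CPM, overlapped. The log2 fold change of CPT1A was 0.42 (standard error 0.15).

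ACADVL, the most abundant of the 9 per length, had 453.0, 489.2 and 582.1 CPM in the control samples and 567.6, 730.9 and 688.4 CPM in the CLs-treated samples. CLs-1 lay below Control-3, so the groups overlapped at those libraries, and the log2 fold change was 0.38 (standard error 0.15). By GENCODE release 29, 85 bases of the ACADVL exons are shared with DLG4 on the opposite strand. DLG4 had at most 240 reads in any library and ACADVL at least 5217.

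The library with the highest level was CLs-3 for ANGPTL4 and SLC25A20, CLs-1 for CPT1A and CLs-2 for ACADVL, so the 4 targets did not share an order over the treated samples. Without CLs-1, the log2 fold changes of SLC25A20, CPT1A and ACADVL were 0.81, 0.33 and 0.48.

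**Figure D1:**
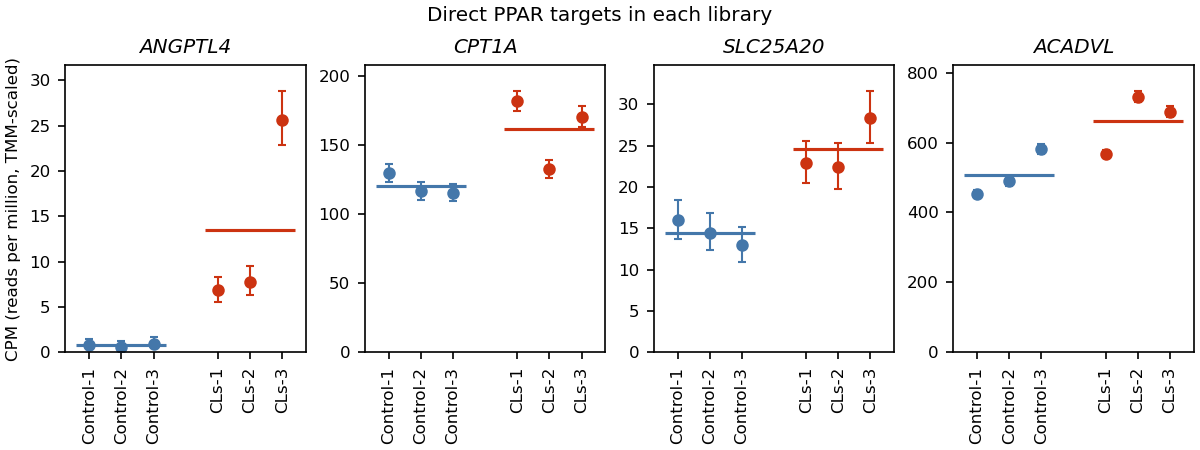
CPM of the 4 direct targets in each library, on linear axes from 0. Points are libraries (blue, control; red, CLs-treated), bars the 95% Poisson interval of the counts and lines the mean of each group. ANGPTL4 was 0.604 to 0.943 CPM in the control samples and 6.85 to 25.7 CPM in the CLs-treated samples, and the groups of ACADVL overlapped.

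A large fold change and a large amount of transcript were not the same thing in these genes. To compare levels between genes, CPM was divided by the length of the union of exons of each gene. Per kb of exon, the mean level of ANGPTL4 was 0.313 ± 0.0683 CPM (SD, n = 3) without CLs and 5.41 ± 4.27 CPM (SD, n = 3) with them. The treated mean rested on CLs-3, at 10.3 CPM per kb beside 2.76 in CLs-1 and 3.13 in CLs-2. SLC25A20 was at 7.29 ± 0.764 CPM per kb (SD, n = 3) in the control group, above ANGPTL4 in CLs-1 and CLs-2 and below it in CLs-3. The difference in level between the groups was 5.10 CPM per kb for ANGPTL4, 5.09 for SLC25A20, 6.26 for CPT1A and 31.7 for ACADVL. Without CLs-3, a setting chosen after seeing the data, the difference was 2.63 CPM per kb for ANGPTL4 and 4.14 for SLC25A20. ANGPTL4 had the largest ratio of the 4, and its difference in level per length depended on CLs-3.

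PPARA, the receptor known for fatty acid oxidation in liver, had 149, 219 and 269 reads in the control samples and 207, 151 and 199 in the CLs-treated samples. These were 12.9, 18.9 and 23.1 CPM against 14.3, 13.1 and 17.4 CPM. Control-1 was the lowest and Control-3 the highest of the 6 libraries, so the treated samples lay within the control range. Its log2 fold change was -0.29 (standard error 0.22), and it was between -0.49 and -0.09 with single libraries left out.

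PPARD, the widely expressed receptor, had 33.4, 38.6 and 39.6 CPM in the control samples and 28.9, 36.3 and 32.4 CPM in the CLs-treated samples. CLs-1 and CLs-3 were the lowest libraries and CLs-2 lay above Control-1, so the groups overlapped. The log2 fold change was -0.19 (standard error 0.15). PPARA and PPARD had log2 fold changes under 0 in all 13 settings tried, and neither passed the criteria in any of them.

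PPARG, the receptor of fat cell formation, had 85, 43 and 164 reads in the control samples and 109, 68 and 165 in the CLs-treated samples. In CPM these were 7.38, 3.71 and 14.1 in the control samples and 7.55, 5.88 and 14.5 in the CLs-treated samples. The sample numbered 3 was the highest of its group in both groups, and its level was about the same with and without CLs. The highest of the 6 libraries was 3.89 times the lowest, a wider range than for any of the other 4 receptor genes. The log2 fold change was 0.14 (standard error 0.44), and its direction turned with a single library: it was -0.32 without CLs-3, -0.21 without Control-2 and 0.74 without Control-3. CA9, a gene of the hypoxia list below that was singled out after its values were seen, had 14, 15 and 63 reads in the control samples and 19, 22 and 65 in the CLs-treated samples, also highest in the samples numbered 3.

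RXRA and RXRB encode the partners that all 3 PPARs need for binding. RXRA had 19.5, 21.8 and 23.5 CPM in the control samples and 21.5, 22.6 and 22.3 CPM in the CLs-treated samples, the narrowest range of the 9 genes, with the highest library at 1.20 times the lowest. Its log2 fold change was 0.04 (standard error 0.15), and -0.03 without Control-1. RXRB had 76.2, 86.5 and 93.4 CPM in the control samples and 70.9, 102.2 and 96.9 CPM in the CLs-treated samples. CLs-1 was the lowest library and CLs-2 the highest, so the treated group enclosed the control group, and the log2 fold change was 0.08 (standard error 0.16), -0.03 without CLs-2 and 0.22 without CLs-1. In GENCODE, 244 exon bases of RXRB, 6.22% of its exons, are shared with SLC39A7 on the opposite strand, which had 2915 to 4058 reads, and whether the counting used strand is not given in the sources used here. RXRG, the other RXR gene, had 0 reads in all 6 libraries.

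**Figure D2:**
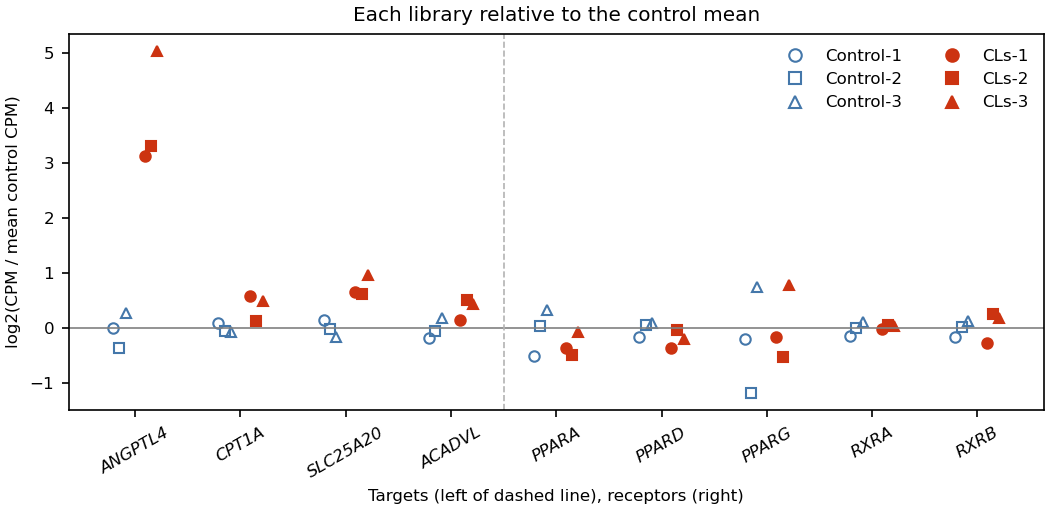
log2 of the CPM in each library over the mean CPM of the 3 control samples, for the 4 targets (left of the dashed line) and the 5 receptor genes (right). Open symbols are control samples and filled symbols CLs-treated samples, with circles, squares and triangles for samples 1, 2 and 3. Relative to the control mean the treated samples of ANGPTL4 were at 8.83-fold to 33.1-fold, and PPARG was highest in the samples numbered 3 of both groups.

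The order of the receptor levels was not used to choose the genes and was compared within each library. Per kb of exon, the mean over the 6 libraries was 22.4 CPM for RXRB, 7.82 for PPARD, 1.97 for RXRA, 1.95 for PPARG and 1.26 for PPARA. RXRB was above PPARD in 6 of 6 libraries, by 1.51 ± 0.17 on the log2 scale (SD, n = 6; exact two-sided paired sign-flip permutation p = 0.03125, adjusted p = 0.0625 over the 4 neighbouring pairs). PPARD was above RXRA in 6 of 6 libraries, by 1.98 ± 0.15 (SD, n = 6; exact permutation p = 0.03125, adjusted p = 0.0625). A p-value of 0.03125 is the smallest that 6 libraries can give, and after adjustment neither pair passed 0.05. RXRA and PPARG did not differ beyond their spread per kb of exon, with a difference of 0.17 ± 0.73 and RXRA higher in 4 of 6 libraries (exact permutation p = 0.5625). PPARG was above PPARA in 5 of 6 libraries, by 0.51 ± 0.71, again within the spread (exact permutation p = 0.1562, adjusted p = 0.2083). The calls after adjustment and the place of RXRA depended on the length used, while RXRB stayed above PPARD on average. Without division by length all 4 differences passed, with an adjusted exact permutation p of 0.0312 each, RXRA above PPARG by 1.46 and PPARG below PPARA, at -1.04. With the longest coding transcript as length, for RXRA 1846 bases in place of a union of exons of 11083 bases, PPARD minus RXRA turned to -0.365 and RXRA minus PPARG was 1.60, both with an adjusted exact permutation p of 0.0417. RXRB was the highest and PPARA or PPARG the lowest of the 5 in each of the 6 libraries per kb of exon.

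**Figure D3:**
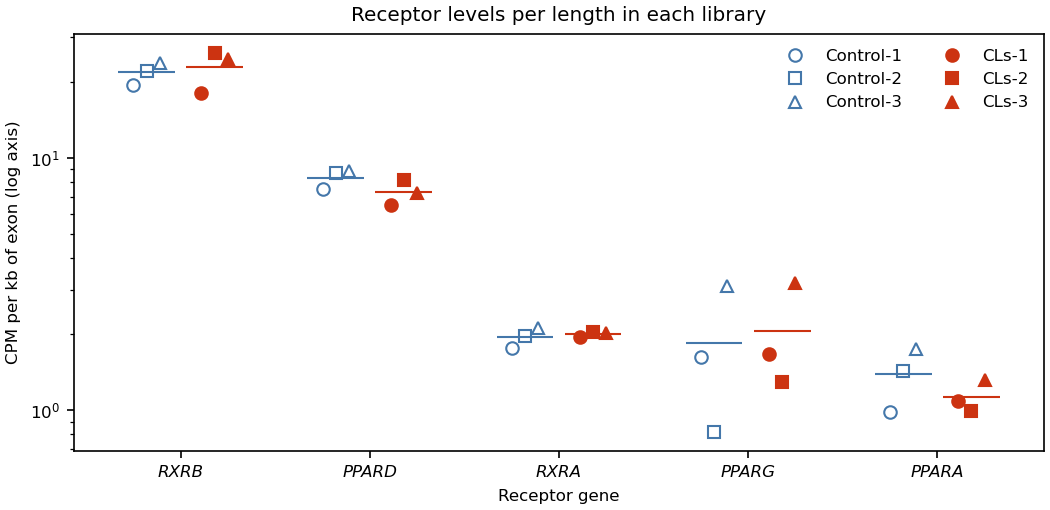
Level of the 5 receptor genes in CPM per kb of exon, on a log axis, in each library (open blue, control; filled red, CLs-treated; lines, group means). The points of RXRB were between 18.1 and 26.1 CPM per kb, above all others. Those of PPARG overlapped those of RXRA and those of PPARA. The highest point of PPARA, at 1.745, lay just below the lowest of RXRA, at 1.763.

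Beyond these 9 genes, 40 other genes known as PPAR targets were taken as a list, of which 26 passed the filter on low counts. The list was chosen with earlier results of these data known, and the study itself reports PDK4 as changed. The counts and the median of the list are therefore given as a description. In the edgeR quasi-likelihood test, adjusted over all genes by Benjamini-Hochberg, 1 of the 26, PDK4, rose and none fell, against 0.0133% of all genes called higher. PDK4, the kinase that shuts off pyruvate dehydrogenase, went from 6.01 ± 0.595 CPM (SD, n = 3) to 34.8 ± 6.42 CPM (SD, n = 3), which is 2.53 on the log2 scale (standard error 0.19) with an adjusted p of 0.000615. PDK4 passed in all 13 settings, each with 1 library left out included. The log2 fold change was above 0 in 18 of the 26 and below 0 in 8, with a median of 0.10, beside 52.1% above 0 and a median of 0.01 over all genes tested. With single libraries left out the median of the list was between 0.0522, without Control-1, and 0.184, without CLs-1. The groups were separated upwards in 4 of the 26 (PDK4, ACAA2, ACADM and HADHB) and downwards in 1 (LPIN1), beside 5.34% and 6.18% of all genes.

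After PDK4, the highest log2 fold change of the list was that of ACAA2, the last thiolase of mitochondrial fatty acid oxidation, with 0.55 (standard error 0.13, adjusted p = 0.2336 from the same edgeR test). It had 1578, 1519 and 1385 reads in the control samples and 2750, 2335 and 1984 in the CLs-treated samples. The lowest were LPIN1, a phosphatidate phosphatase and PPAR coactivator, with -0.35 (standard error 0.14), and UCP2, a mitochondrial carrier, with -0.34 (standard error 0.20). Neither passed the test. Within mitochondrial oxidation the values of ACADM, ETFDH, DECR1 and HADHB were 0.35, 0.30, 0.42 and 0.20, and those of HADHA and CPT2 were 0.05 and 0.11. EHHADH, of peroxisomal oxidation, was at 0.01 (standard error 0.24). None of these 7 genes passed the test.

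The other 14 targets of the list had too few reads, and 8 of the 40 were at 3 reads or fewer in every library. FABP1, VNN1, APOA5 and PLIN5 had 0 reads in all 6 libraries. CYP4A11, a fatty acid hydroxylase, had at most 1 read in any library. PLIN2, a lipid droplet protein, had 1, 0 and 7 reads in the control samples and 91, 1 and 3 in the CLs-treated samples, and G0S2 had 31 reads in CLs-1 and 0 elsewhere. Both of these were high in CLs-1 alone, the library in which some of the steroidogenic and blood markers were also high. The part of those markers in these values was not tested.

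**Figure D4:**
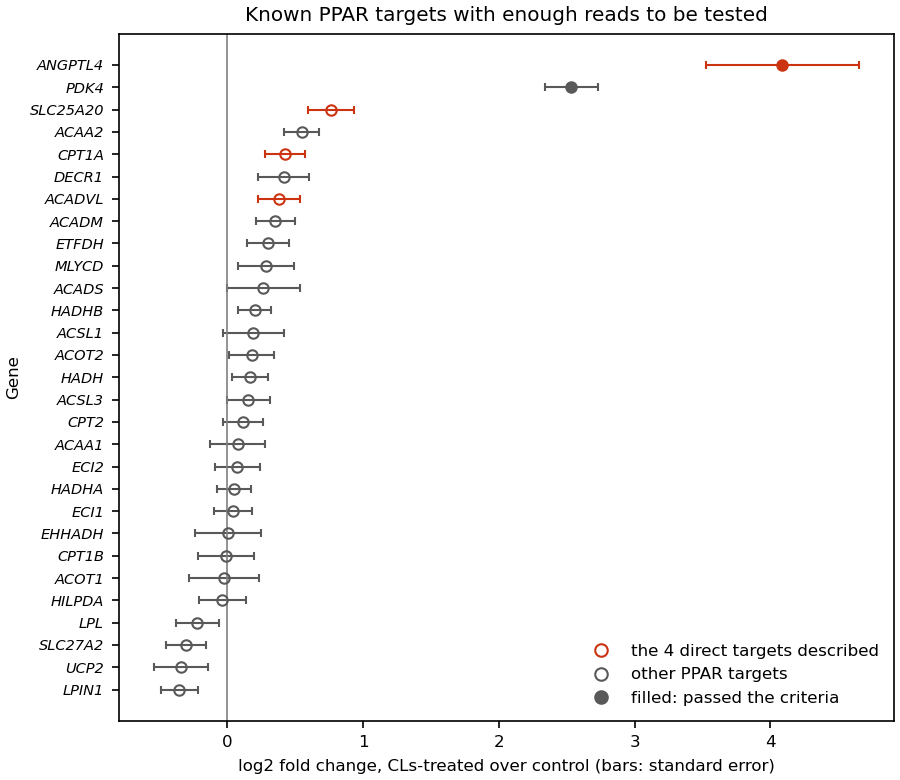
log2 fold change (CLs-treated over control) with its standard error for the PPAR targets with enough reads to be tested, sorted by value, with 1 of the 30 not shown. Red points are the 4 direct targets described and grey points the other targets, filled where the criteria were passed. ANGPTL4 at 4.09 and PDK4 at 2.53 were followed by SLC25A20 at 0.76, and the remaining genes lay between -0.35 and 0.55.

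Of 17 coactivators and corepressors of the PPARs, none passed in edgeR or DESeq2. By edgeR, 2 had an unadjusted p-value under 0.05, beside 874 of the 15047 genes tested. The median log2 fold change of the 17 was -0.10, with 6 above and 11 below 0. The groups were separated upwards in 1 of the 17, PPARGC1A, and downwards in 2, beside 5.34% and 6.18% of all genes. PPARGC1A, the coactivator PGC-1 alpha, had 44, 69 and 76 reads in the control samples and 129, 86 and 79 in the CLs-treated samples. Its log2 fold change was 0.52 (standard error 0.25), and CLs-3, at 6.92 CPM, lay just above Control-3, at 6.52 CPM. SIRT1, a deacetylase that acts on PGC-1 alpha, was at 0.27 (standard error 0.22), with CLs-1 as its highest library.

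Of 12 genes for RXRG and the other nuclear receptors that pair with RXR, 7 had enough reads to be tested. None passed in edgeR or DESeq2, and none had an unadjusted p-value under 0.05, beside 874 of the 15047 genes tested. The highest log2 fold changes were those of NR1H3 (LXR alpha), with 0.30, and THRA, with 0.13, and the lowest those of THRB, with -0.48, and RARG, with -0.28. NR1H4 and NR1I2, the bile acid and xenobiotic receptors of hepatocytes, had 0 reads in all 6 libraries.

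Most of the other family members of ANGPTL4 had few or no reads. ANGPTL7 had 0 reads in all libraries, ANGPTL1 and ANGPTL8 (listed as C19orf80) at most 1, ANGPTL5 at most 3 and ANGPTL6 at most 4. ANGPTL2 had 32, 32 and 126 reads in the control samples and 42, 27 and 37 in the CLs-treated samples, so its control mean rested on Control-3. LPL, the lipase that ANGPTL4 inhibits, was well expressed, with 74.2, 85.4 and 99.6 CPM in the control samples and 77.8, 82.8 and 61.9 CPM in the CLs-treated samples. The groups of LPL overlapped, and its log2 fold change was -0.22 (standard error 0.16). GPIHBP1 and LIPG had 0 reads in all libraries, and the lipase chaperones LMF1 and SEL1L had log2 fold changes of 0.37 and 0.12. None of the 4 genes with enough reads in this list passed in edgeR or DESeq2. None of the 4 had an unadjusted p-value under 0.05, beside 874 of the 15047 genes tested.

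ANGPTL4 is also known to be induced by hypoxia and by glucocorticoids, and lists of both kinds were measured. Of 16 hypoxia targets, all with enough reads, none passed in edgeR or DESeq2. By edgeR, 2 of the 16 had an unadjusted p-value under 0.05, beside 874 of the 15047 genes tested. The median log2 fold change of the 16 was 0.07, with 10 above and 6 below 0. ERO1L and KDM3A were the highest, with 0.35 and 0.29, and NDRG1 and HK2 the lowest, with -0.55 and -0.30. VEGFA had a log2 fold change of 0.02 and HILPDA, of the PPAR list, -0.04. Of the glucocorticoid receptor gene NR3C1 and 10 of its targets, 9 had enough reads, none passed in edgeR or DESeq2 and 1 had an unadjusted p-value under 0.05. Their median was -0.17, with 4 above and 5 below 0. SGK1 and NR3C1 were the highest, with 0.21 and 0.14, and TSC22D3 and DUSP1 the lowest, with -0.53 and -0.43.

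The genes with the pattern most like that of ANGPTL4 were found by the Pearson correlation of log2 CPM over the 6 libraries among the 15047 genes tested. They were PPAPDC1B (r = 0.998), N6AMT1 (0.992), CAT (0.99), UNK (0.988) and ERMAP (0.984). The points share their libraries and fall into 2 groups, so a gene that is higher in all treated samples can come near. CAT, the gene of catalase, had 583, 607 and 629 reads in the control samples and 1081, 852 and 970 in the CLs-treated samples, a log2 fold change of 0.57. For CPT1A the closest were VWA3A (0.992), MRPS36P1 (0.99), KRBOX4 (0.987), C16orf52 (0.978) and ZNF544 (0.975), and the value of MRPS36P1, a pseudogene, is uncertain because reads of MRPS36 may match it. Among the 9 genes, the correlation with ANGPTL4 was 0.962 for SLC25A20, 0.814 for ACADVL and 0.809 for CPT1A, and between -0.572 and 0.399 for the 5 receptors. With CPT1A it was 0.861 for SLC25A20 but 0.36 for ACADVL. It was -0.921 for PPARD and between -0.378 and 0.308 for the other receptors. The 9 genes were chosen on the contrast between the groups, so these values are a description. The 10 closest genes had smaller changes than ANGPTL4, with log2 fold changes between 0.172 and 0.572.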

How the data were processed

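RNA-seq libraries of 3 control and 3 CLs-treated samples were prepared with the Ion Total RNA-Seq Kit and, per the labels, mixed for sequencing on 1 Proton chip. The counts deposited by the authors, after mapping with MapSplice, are whole numbers of reads on 40205 gene symbols, not normalized. The submitters' processing notes name HTSeq 0.6.1 and hg19. The annotation, the strand setting and the treatment of multi-mapped reads are not given in the sources used here. All columns were used.

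Counts were filtered with filterByExpr (15047 genes left), scaled by TMM and compared with edgeR 4.0.16 (limma 3.58.1, R 4.3.3) by the quasi-likelihood test on condition alone, with Benjamini-Hochberg adjustment. The study used EBSeq, which was not run here. Standard errors were derived from the F statistic. For 1 gene and 3 samples a group, exact two-sided permutation gives no p under 0.1. Exon lengths were taken from GENCODE release 29 on GRCh38, so levels per length are approximate. Neighbouring receptors were compared with an exact paired sign-flip test over 6 libraries. The fit was checked on simulated counts.

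The 9 genes and the gene lists were chosen with earlier results of these data known. The genes named are the 9, the genes of each list that passed and its 2 highest and 2 lowest log2 fold changes, and the 5 genes most like ANGPTL4 and CPT1A. Other list genes, chosen after their values were seen, are given as examples. A few list genes, among them 1 that the rule names, are counted with their lists but not reported here. Alternatives were DESeq2 1.42.0, RLE factors, library totals only, no filter, no fold criterion, a replicate block, and leaving out samples singly.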

Additional observations from a re-analysis of the deposited data

How the results depend on the processing

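The number of genes called over the whole table moved most with the settings. Beside 2 genes higher and 11 lower, edgeR with no filter called 58 and 113, DESeq2 15 and 90, and the replicate block 12 and 56, while library totals only left 6 lower. With each sample left out in turn the counts were 1 to 3 higher and 2 to 6 lower. Of the 9 genes, 1 was called, 2 with no filter and in DESeq2 (ANGPTL4 and SLC25A20), and 0 to 1 with a sample left out. The other PPAR targets had 1 call, and 3 with no filter (PDK4, PLIN2 and G0S2), where 0.228% of all genes were called higher. PLIN2 and G0S2 were high in CLs-1 alone. The replicate block changed no call among the 9 genes or the lists. In the labels, control and CLs-treated samples share only a replicate number. Deviations from the group means correlated at 0.111, 0.0987 and 0.305 for the same number. For different numbers the correlations were lower, at -0.201 to 0.0783. Whether samples of the same number were handled together is not given in the sources used here and was not tested. No gene of the other pathway lists passed under any alternative run.

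The log2 fold changes of the 4 targets stayed above 0 in all 13 settings, at 3.22 to 4.41 for ANGPTL4, 0.649 to 0.841 for SLC25A20, 0.331 to 0.549 for CPT1A and 0.306 to 0.492 for ACADVL. In the order of receptor levels, the difference RXRB minus PPARD was 1.33 without division by length and 1.70 with the longest coding transcript as length, an alternative chosen after seeing the data. PPARD minus RXRA was 0.667 and -0.365, RXRA minus PPARG 1.46 and 1.60, and PPARG minus PPARA -1.04 and 1.26 under the same settings. With a sample left out, RXRA minus PPARG ranged from -0.044 (without Control-2) to 0.341, and 5 libraries cannot give an exact sign-flip p under 0.0625. All 4 pairs had an adjusted exact sign-flip p of 0.0312 without division by length, and the first 3 had 0.0417 with the longest coding transcript. These calls were absent per kb of exon. RXRB minus PPARD was above 0 under each length, and its adjusted p also depends on the p-values of the other pairs. The signs of PPARD minus RXRA and PPARG minus PPARA, and the size of RXRA minus PPARG, rest on the choice of length. The control level of ANGPTL4 rests on 7 to 11 reads a library, and list genes with fewer reads are given as counts alone.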
